A study of Mus musculus with 123 samples.

Results

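The DNA methylation machinery was followed through 8 genes in single αMHC+ cells from mouse hearts, taken on embryonic days E9.5 and E12.5 and on postnatal day 1 (P1). The genes were listed by function: Uhrf1 and Dnmt1 for maintenance, Dnmt3a and Dnmt3b for de novo methylation, Tet1, Tet2 and Tet3 for oxidation of methylated cytosine, and Mbd3 for a methyl-CpG-binding domain protein. They are 8 of the 23337 gene symbols in the count table. They were read in 112 of the 123 cells, those with 2000 or more genes found: 42 from E9.5, 29 from E12.5 and 41 of the 52 from P1. All cells came from hearts of the aMHC-GFP strain, and no group carried a further allele or a treatment. GFP in these mice is driven by the αMHC promoter, and the sort was made on GFP, so that heart cells without it were not sought. Embryonic hearts were digested with collagenase type I and P1 hearts with Liberase, and the cells were captured on Fluidigm C1 chips. The labels name no animal, litter or chip. Each time point was therefore 1 sample of many cells, and since such cells are no replicates, the comparisons below carry no p-value.

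Methylation of cytosine in CpG pairs is copied to the new strand after each round of DNA replication. UHRF1 recognizes hemimethylated CpG and brings in DNMT1, the maintenance methyltransferase. DNMT3A and DNMT3B methylate sites that carried no methyl group. The TET dioxygenases oxidize 5-methylcytosine to 5-hydroxymethylcytosine and further products, the first steps of active demethylation. MBD3 is a subunit of the NuRD chromatin remodeling and histone deacetylase complex and, unlike its relative MBD2, does not bind methylated CpG selectively in mammals. CMs leave the cell cycle around birth, and CMs are known to gain and lose methylation at many genes during this period.

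Cells of E9.5 held 268301 to 6351742 counts each, those of E12.5 148258 to 7711355, and those of P1 69522 to 327360. The prefixes of the cell titles divide E9.5 into the naming sets C (14 cells) and N530 (28), and E12.5 into C (20), N523 (8) and E12-5b (1), while P1 has set C alone. Depth differed between these sets, with 268301 to 588443 counts per cell in set C of E9.5 and 2953992 to 7711355 in set N523 of E12.5, so each value was also taken within the sets and after every cell was thinned to 100000 counts, which left out 3 P1 cells. The chips, the digestion and the depth of P1 cannot be told apart from its age. Cardiomyocyte markers (Tnnt2, Tnnc1, Actc1, Myh6, Myh7, Ttn, Myl4 and Myl7) were checked in every cell. All but 3 cells, which belonged to set C of E9.5, had at least 5 of these 8, and the sum of the 8 lay between 4.35 and 154080 CPM (counts per 1000000 counts of the cell) at E9.5. It lay between 16453 and 97912 CPM at E12.5, and between 297 and 114901 CPM at P1. Of 6 endothelial markers, the sum was at a median of 0 CPM at each time point and reached 7804 CPM in the P1 cell with the lowest cardiomyocyte sum. Fibroblast, epicardial, erythroid and macrophage markers had medians of 0 to 0.433 CPM. At E9.5 the fibroblast sum reached 4007 CPM in a cell and the epicardial sum 2695 CPM. The endothelial sum reached 1904 CPM at that age, and 1 cell of set C had at least 5 of the 6 endothelial markers. Smooth muscle markers, some of which embryonic CMs also express, had medians of 4373, 2324 and 1110 CPM in the order of age. The part of other cell types in the results below was not tested beyond the values given without such cells.

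The clearest difference was in the transcripts of the maintenance genes. Uhrf1 was found in most embryonic cells and in none of the P1 cells kept, and Dnmt1 in most embryonic cells and in 5 P1 cells. Dnmt3a, Tet1, Tet2 and Tet3 were found at all 3 time points in shares of cells that changed little. Dnmt3b was all but absent throughout, and Mbd3 was found in fewer cells at P1 than at E9.5.

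Uhrf1 lies on chromosome 17 (GRCm38, 56303321 to 56323486, plus strand). At E9.5 it was found, with 1 count or more, in 31 of 42 cells (73.8%, exact 95% binomial interval 58.0 to 86.1%), with a lowest value of 0 CPM, a median of 34.8 and a highest of 1825. At E12.5 it was found in 19 of 29 cells (65.5%, 45.7 to 82.1%), with a median of 25.7 CPM and a highest of 1004. At P1 it was found in 0 of 41 cells, which allows a share of up to 7.32%, that of 3 cells (exact interval 0 to 8.60%). The embryonic cells thus ran from no count to high levels, and no P1 cell overlapped those with a count. After thinning, the shares were 22 of 42 cells (52.4%, 36.4 to 68.0%), 16 of 29 (55.2%, 35.7 to 73.6%) and 0 of 38 (0 to 9.25%). At equal depth, too, the gene was read in embryonic cells and in no P1 cell. In counts summed over cells, Uhrf1 stood at 93.2 CPM at E9.5 (exact Poisson interval 91.4 to 95.1) and at 343 CPM at E12.5 (338 to 348), where 1 cell gave 44.7% of the counts. At P1 it had no count in all the cells kept, which allows up to 0.440 CPM at 3 counts (exact Poisson interval 0 to 0.541). These intervals cover counting error only, since the reads carry no molecular identifiers. Among the 11 P1 cells left out for having fewer than 2000 genes, 1 had 2 counts of Uhrf1, out of 4903 counts in that cell (408 CPM).

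As the mean over cells of each cell's CPM, the level used for all ratios below, Uhrf1 was at 157 CPM in E9.5 cells, 189 CPM in E12.5 cells and 0 CPM in P1 cells. P1 was at least 318-fold lower than E9.5 and at least 383-fold lower than E12.5, bounds that set P1 to the 0.493 CPM that 3 counts over its cells would give. These bounds hold for the cells kept, and without the 3 E9.5 cells described below the log2 bound against E9.5 was -7.55 in place of -8.31. With all 52 P1 cells, the P1 mean was 7.84 CPM, all of it from the cell of 4903 counts, and Uhrf1 was 20.0-fold lower than at E9.5 and 24.1-fold lower than at E12.5. The direction held in both pairs of naming sets, with bounds on the log2 scale from -9.30 to -7.34 against E9.5 and from -9.28 to -8.26 against E12.5. Between the embryonic time points no difference could be read. The log2 ratio of E12.5 to E9.5 was 0.27, and it ran from -1.04 to 1.94 over the 4 pairs of naming sets. The 2 highest Uhrf1 values at E9.5 were in cells with fewer than 5 cardiomyocyte markers, all 3 of which had Uhrf1 (190 to 1825 CPM). Without these 3 cells, the E9.5 mean was 92.5 CPM and the log2 ratio of E12.5 to E9.5 was 1.03, past 2-fold. Within set C, the means were 310 CPM at E9.5 and 151 at E12.5, and 124 at E9.5 without the 3 cells, so that the direction in this set turned.

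Dnmt1 lies on chromosome 9 (20907209 to 20959888, minus strand). It was found at E9.5 in 33 of 42 cells (78.6%, 63.2 to 89.7%; median 50.9 CPM, highest 1258), in 16 of 29 at E12.5 (55.2%, 35.7 to 73.6%; median 0.389, highest 391) and in 5 of 41 at P1 (12.2%, 4.08 to 26.2%; median 0, highest 214). Unlike Uhrf1, it did not vanish at P1, and the P1 range lay inside those of both embryonic time points. Thinned to equal depth, it was found in 26 of 42 cells (61.9%), 12 of 29 (41.4%) and 4 of 38 (10.5%, 2.94 to 24.8%). The mean went from 185 CPM in E9.5 cells and 60.1 CPM in E12.5 cells to 9.73 CPM in P1 cells, a log2 ratio of -4.25 for P1 to E9.5 (-4.61 to -3.03 over the pairs) and of -2.63 against E12.5 (-3.11 to -2.46). The decrease from E9.5 to E12.5, of -1.62, was less secure. It was -0.56 within set C, and 1 of 4 pairs of naming sets gave 0.08.

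The 5 P1 cells with Dnmt1 held 44, 16, 7, 4 and 2 counts of it. The first 2 of these also had the products of the replication list defined below, at 355 and 126 CPM in sum, and the other 3 had none. Over all 41 P1 cells this sum had a median of 38.2 CPM, and it reached 1292 CPM in a cell without Dnmt1. The single highest cell supplied 60.3% of the Dnmt1 counts of P1, and without it the P1 mean was 4.63 CPM. None of the 5 had a count of Uhrf1, and 1 had a single count of Mki67, the gene of the proliferation marker Ki-67.

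**Figure D1:**
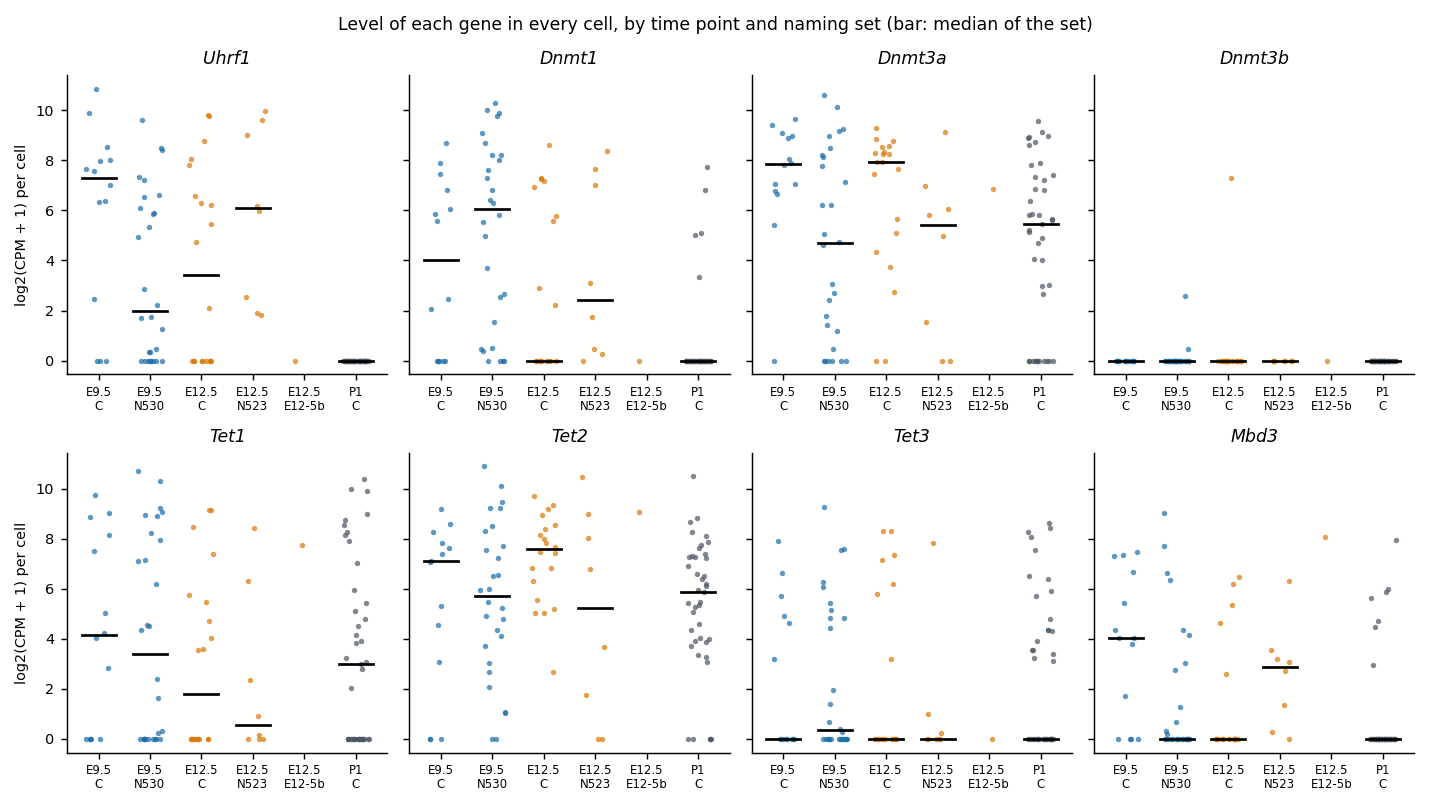
Level of the 8 genes in each of the 112 cells as log2(CPM + 1), by time point and naming set, with 1 point per cell and a bar at the median of sets of 6 or more cells. Uhrf1 is at 0 in all 41 P1 cells and Dnmt1 above 0 in 5 of them, whereas Dnmt3a and Tet2 reach 764 and 1453 CPM at P1.

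Uhrf1 and Dnmt1 were both lower at P1, and their promoter windows are shown for that reason, beside that of Dnmt3a, which was within 2-fold. Windows run from 250 bases before to 50 after a RefSeq start (GRCm38.p6), and the 8 genes have 13 of them. The windows were searched on both strands for 4 forms of the E2F motif, TTTCCCGC, TTTCGCGC, TTTGCCGC and TTTGGCGC, since E2F factors are known to drive genes of the S phase. In the second Uhrf1 window, the 250 bases before the start (chr17:56304063-56304312, plus strand) hold 1 match, in capitals, which lies in no annotated exon of the gene.

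Uhrf1: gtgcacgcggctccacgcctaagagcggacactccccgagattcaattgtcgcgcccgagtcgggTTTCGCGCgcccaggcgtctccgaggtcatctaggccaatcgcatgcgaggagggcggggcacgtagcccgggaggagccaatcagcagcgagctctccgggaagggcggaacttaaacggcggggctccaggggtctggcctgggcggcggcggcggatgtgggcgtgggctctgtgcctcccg

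In the first Dnmt1 window (minus strand), 2 matches lie within annotated 5′ untranslated exons of Dnmt1 transcripts, and 30 bases around each are given, from chr9:20952824-20952853 (match on the opposite strand) and chr9:20952574-20952603 (same strand), again with the match in capitals.

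Dnmt1 upstream: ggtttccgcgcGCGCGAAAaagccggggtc
Dnmt1 downstream: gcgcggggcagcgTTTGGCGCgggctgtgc

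The 250 bases before the first Dnmt3a start (chr12:3806730-3806979, plus strand) are rich in CpG and hold none of the 4 forms.

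Dnmt3a: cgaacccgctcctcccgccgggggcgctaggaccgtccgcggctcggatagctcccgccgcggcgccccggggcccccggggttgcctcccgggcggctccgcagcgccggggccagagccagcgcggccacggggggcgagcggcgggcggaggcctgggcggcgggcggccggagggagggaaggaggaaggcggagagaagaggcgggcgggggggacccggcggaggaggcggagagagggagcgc

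A match was found in 2 of the 13 windows of the 8 genes, those of Uhrf1 and Dnmt1, with none in the windows of the other 6 genes. Of all 32851 windows of this length, 744 (2.26%) hold a match, and among the windows with at least 33 CpG, the number in both matched windows, 4.27% do. The matched windows were thus not the most CpG-rich, as those of Dnmt3a had up to 47 CpG and that of Tet2 57. A match is a run of letters and says nothing on whether a factor bound there, and no match says only that these letters are not in the window.

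Uhrf1 and Dnmt1 were read in the same cell in 28 of 42 cells at E9.5 (66.7%), 12 of 29 at E12.5 (41.4%) and 0 of 41 at P1. Cells with neither made up 6 of 42 (14.3%, 5.43 to 28.5%), 6 of 29 (20.7%, 7.99 to 39.7%) and 36 of 41 (87.8%, 73.8 to 95.9%). At equal depth, both were found in 14 of 42, 7 of 29 and 0 of 38 cells. Dnmt3a without either maintenance gene was seen in 6 of 42 cells on E9.5 and in 6 of 29 on E12.5, but in 27 of 41 on P1 (65.9%, 49.4 to 79.9%). The P1 cells therefore mostly held transcripts of a de novo methyltransferase without those of the maintenance pair.

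Dnmt3a, on chromosome 12 (3806007 to 3914443, plus strand), was found at E9.5 in 35 of 42 cells (83.3%; median 105 CPM, highest 1583), 25 of 29 at E12.5 (86.2%; median 126, highest 619) and 30 of 41 at P1 (73.2%; median 43.1, highest 764). The 3 ranges overlapped over most of their length. After thinning, it was found in 29 of 42, 22 of 29 and 26 of 38 cells, with intervals that overlapped. The mean went from 243 CPM at E9.5 and 188 at E12.5 to 130 at P1, a log2 ratio of -0.90 for P1 to E9.5 (-1.22 to -0.71 over naming sets), short of 2-fold. In set C alone, and in deposited TPM (-1.27), this ratio was past 2-fold. Strand was not known to be used in the counting, and 133 of the exonic bases of Dnmt3a overlap an antisense gene.

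Dnmt3b, on chromosome 2 (153649450 to 153687730, plus strand), was found at E9.5 in 2 of 42 cells, with 13 counts in all, in 1 of 29 at E12.5, with 39 counts (154 CPM), and in 0 of 41 at P1. It was below 10 CPM at each time point, and no ratio was read. Of the de novo enzymes, only Dnmt3a was thus found in more than 2 cells of a time point.

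**Figure D2:**
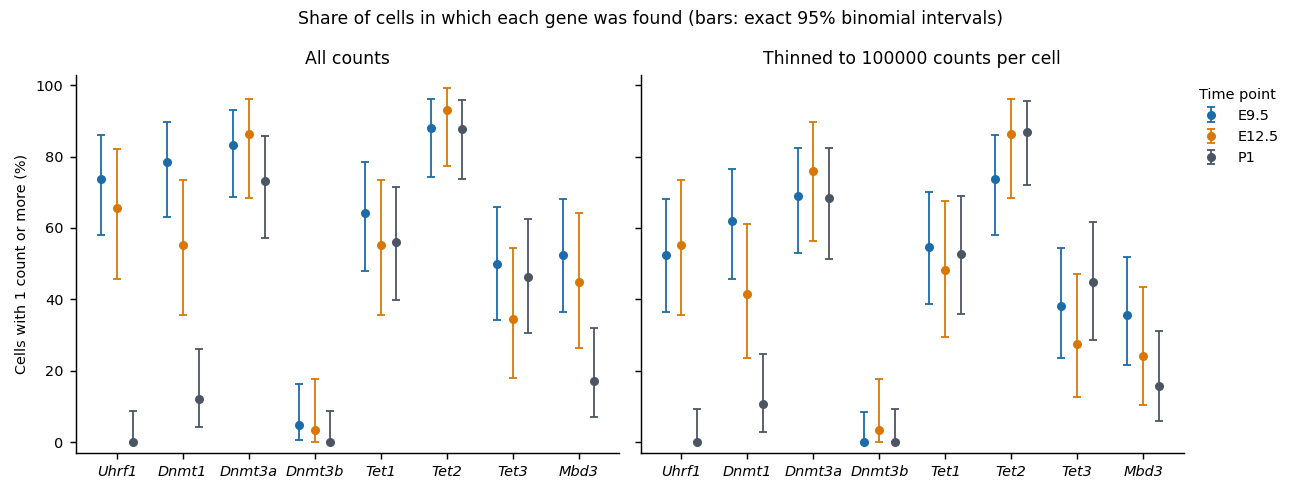
Share of cells with 1 count or more of each gene at E9.5, E12.5 and P1, with all counts (left) and after thinning each cell to 100000 counts (right). Error bars are exact 95% binomial intervals, and after thinning Uhrf1 stands at 52.4, 55.2 and 0%, while Tet2 stands at 73.8, 86.2 and 86.8%.

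The TET genes were found from the embryo to P1 in similar shares of cells. At least 1 of the 3 was found at E9.5 in 40 of 42 cells, 27 of 29 at E12.5 and 38 of 41 at P1, and all 3 in 14, 5 and 10 cells. Tet2, on chromosome 3 (133463679 to 133545139, minus strand), was the most widespread, with 37 of 42 cells at E9.5 (88.1%; median 61.8 CPM, highest 1889), 27 of 29 at E12.5 (93.1%; median 175, highest 1408) and 36 of 41 at P1 (87.8%; median 57.6, highest 1453). Its mean was 210, 270 and 129 CPM. P1 was lower than E12.5 by a log2 ratio of -1.07, which was -0.96 within set C and -0.92 in counts summed over cells, both short of 2-fold. Against E9.5 the P1 ratio was -0.70, but it was past 2-fold in counts summed over cells (-1.05), after thinning (-1.13), in deposited TPM (-1.05) and among cells with 3000 or more genes (-1.25). The share of cells with Tet2 did not move with this, at 86.2% of E12.5 and 86.8% of P1 cells after thinning.

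Tet1, on chromosome 10 (62804570 to 62908996, minus strand), was found in 27 of 42, 16 of 29 and 23 of 41 cells, at medians of 16.7, 0.866 and 6.98 CPM and highest values of 1652, 564 and 1330. It was thus near absent in many cells and high in a few at every time point. Its mean was 199, 84.5 and 142 CPM. The log2 ratio of E12.5 to E9.5 was -1.23, below 0 in all 4 pairs of naming sets (-1.99 to -0.91) but short of 2-fold within set C. Shares after thinning were 54.8, 48.3 and 52.6%.

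Tet3, on chromosome 6 (83362373 to 83459084, minus strand), was found in 21 of 42, 10 of 29 and 19 of 41 cells, with means of 41.2, 44.7 and 47.1 CPM and highest values of 606, 318 and 389. None of its 3 ratios was past 2-fold, and its direction turned between pairs of naming sets in the comparisons with E12.5. At P1, Tet3 was the TET gene found in the fewest cells (44.7% after thinning, against 52.6% for Tet1), with intervals that overlapped.

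Mbd3, on chromosome 10 (80392539 to 80399550, minus strand), was found at E9.5 in 22 of 42 cells (52.4%; median 0.204 CPM, highest 521), 13 of 29 at E12.5 (44.8%; median 0, highest 266) and 7 of 41 at P1 (17.1%, 7.15 to 32.1%; median 0, highest 247). Its mean CPM were 39.6 for E9.5 and 11.4 for P1, a log2 ratio of -1.79 for P1 to E9.5 (-2.14 to -1.59 over naming sets). In counts summed over cells this was -0.94, among cells with 3000 or more genes -0.86, and 1 cell held 66.0% of the Mbd3 counts of P1. At equal depth the shares were 35.7, 24.1 and 15.8%, with intervals that overlapped. The single cell of set E12-5b was the highest at E12.5. Without it, Mbd3 was also past 2-fold from E9.5 to E12.5, at -1.70.

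A gene was called where its mean CPM differed by 2-fold or more and reached 10 CPM at the higher time point, a rule of size with no test behind it. Of the 8 genes, 7 reached this level in each comparison, and none was higher at the later time point. From E9.5 to P1, 3 were lower (Uhrf1, Dnmt1 and Mbd3), where 42.4% of 9136 genes were lower and 18.8% higher. From E12.5 to P1, 3 were lower (Uhrf1, Dnmt1 and Tet2), where 34.3% of 8631 genes were lower and 19.1% higher. From E9.5 to E12.5, 2 were lower (Dnmt1 and Tet1), where 28.4% of 9109 genes were lower and 18.8% higher. As a group, the 7 genes were called at about the rate of all genes. Their median log2 ratio was -0.90 from E9.5 to P1, against -0.64 over all genes tested. Uhrf1 and Dnmt1 had the largest decreases of the 7 in both comparisons with P1. In counts summed over cells, 5 genes were past 2-fold between the embryonic time points, with Uhrf1 higher at E12.5 and Dnmt1, Dnmt3a, Tet1 and Tet3 lower. Uhrf1 was also past 2-fold higher at E12.5 without the 3 E9.5 cells that had fewer than 5 cardiomyocyte markers.

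**Figure D3:**
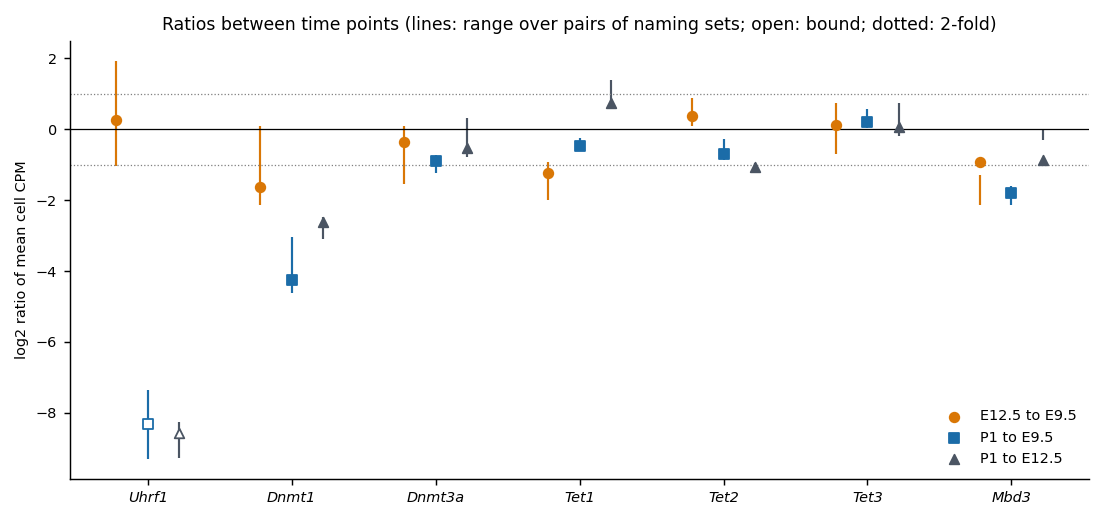
log2 ratio of mean cell CPM between time points for the 7 genes at 10 CPM or more, with a line for the range over pairs of naming sets of 6 or more cells, and open symbols for bounds. Uhrf1 and Dnmt1 lie at -8.31 and -4.25 for P1 to E9.5, while the other 5 genes lie between -1.79 and 0.19. Mbd3 points lie outside the lines where the single cell of set E12-5b enters the mean and not the pairs.

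Levels of different genes were compared per length, in deposited TPM (transcripts per 1000000). At E9.5 the means over cells were 93.7 TPM for Uhrf1, 67.4 for Dnmt1, 54.3 for Dnmt3a, 50.8 for Mbd3, 50.6 for Tet2, 32.4 for Tet1 and 8.36 for Tet3. At P1 the order was Tet2 (24.4), Dnmt3a (22.5), Tet1 (17.0), Mbd3 (12.2), Tet3 (7.10), Dnmt1 (2.46) and Uhrf1 (0). In these means over all cells, Uhrf1 and Dnmt1 went from the top of the order to its foot. Without the 3 E9.5 cells that had fewer than 5 cardiomyocyte markers, Dnmt1 led at 66.9 TPM and Uhrf1 was at 55.3, close to Tet2 (53.5) and Dnmt3a (52.7). The E9.5 order differed between naming sets, since Uhrf1 led in set C, at 182 TPM, with Dnmt1 the fifth, at 26.1 TPM, whereas Dnmt1 led in set N530. All 3 of those cells belong to set C, and without them Uhrf1 was at 70.1 TPM and Dnmt1 at 13.2 in this set.

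The make-up of both enzyme families followed from this. Summed TPM of the 3 methyltransferases were 122, 55.6 and 25.0 in the order of age, and Dnmt3a made up 44.6, 64.7 and 90.1% of them. Within the time points this share varied with the naming set, and all values were under that of P1. It was 35.6% (N530) and 71.5% (C) at E9.5, and 43.97% (N523) and 69.7% (C) at E12.5. Within set C it thus did not rise between the embryonic time points. Without the 3 E9.5 cells that had fewer than 5 cardiomyocyte markers, set C of E9.5 had Dnmt3a at 62.8 TPM and Dnmt1 at 13.2. The share of Dnmt3a in that set was then higher than 71.5%, and so closer to that of P1. Summed TPM of the TET genes were 91.4, 74.7 and 48.5, and Tet2 held 55.4, 74.1 and 50.3% of them. The summed TPM of the TET genes thus lay below those of the methyltransferases at E9.5 and above them at E12.5 and P1, in each naming set of 6 or more cells.

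**Figure D4:**
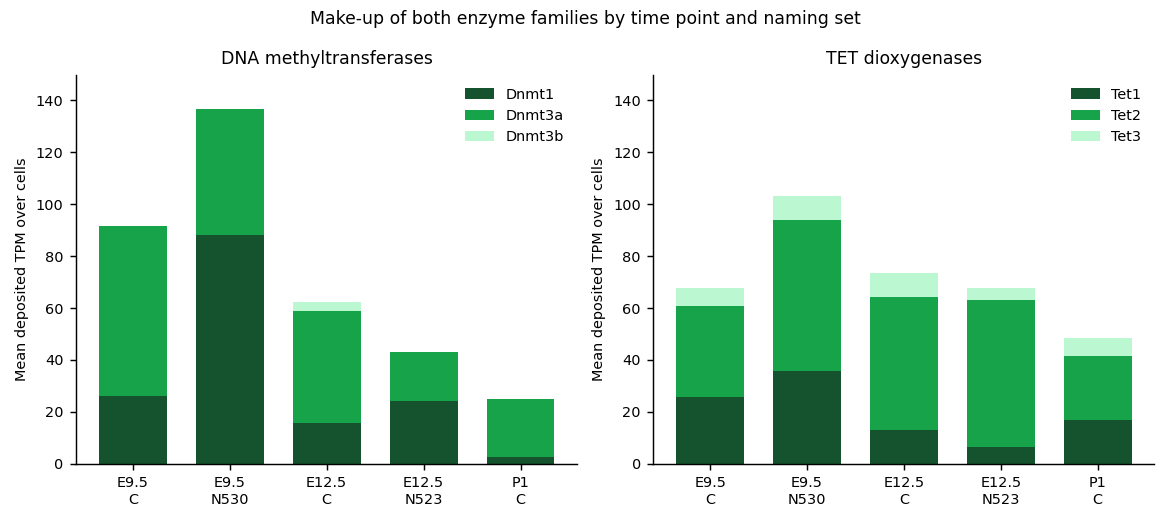
Mean deposited TPM over cells of the DNA methyltransferases (left) and the TET dioxygenases (right), stacked by gene, for each time point and naming set of 6 or more cells, without error bars since each bar is 1 sample. Dnmt1 makes up 2.46 of 25.0 TPM at P1, while the 3 TET genes are present in every set.

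Other genes of the pathway were read from a list of 28. From E9.5 to P1, 23 reached 10 CPM, of which 14 were lower, 3 higher and 6 within 2-fold, with a median log2 ratio of -1.63 against -0.64 over all genes, of which 42.4% were lower and 18.8% higher. Hells, a chromatin remodeler needed for DNA methylation, went from 58.7 CPM (57.1% of cells) to 0, at least 119-fold lower (log2 bounds of -7.97 and -5.73 for the naming sets). Uhrf2, the relative of Uhrf1, went from 132 to 1.61 CPM, 82.3-fold lower, with a log2 ratio of -6.80 against set N530 and of -4.56 against set C. One cell gave 43.4% of its E9.5 counts and 1 cell most of its 8 counts at P1, and without the highest cell of each the means were 84.8 and 0.381 CPM. Mbd4, a glycosylase for mismatches at CpG, went from 10.2 to 0.237 CPM. These genes moved in the direction of Uhrf1 and Dnmt1, although Mbd4 was already at 0.226 CPM at E12.5. Those higher at P1 were Trdmt1, a methyltransferase of transfer RNA, at 0 and 53.2 CPM (17.1% of P1 cells), Zbtb38, which encodes a zinc finger protein that binds methylated DNA, at 6.67 and 47.4 CPM, and Smug1, a uracil-DNA glycosylase, at 7.37 and 20.5 CPM. Trdmt1 was already at 25.9 CPM at E12.5, in 17.2% of cells. Smug1 was found in fewer cells at P1 (7.32%) than at E9.5 (14.3%). The Smug1 ratio was short of 2-fold in 1 of the naming sets, at 0.89 on the log2 scale. Mbd2, a reader of methylated CpG, was at 29.2 and 35.1 CPM, but 1 cell gave 94.6% of its E9.5 counts. Without the highest cell of each time point the means were 8.78 and 19.8 CPM, so that no direction was read. Tdg, the glycosylase that acts on TET products, was listed at 0 in every cell kept.

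From E12.5 to P1, 22 of the 28 reached 10 CPM, with 10 lower and 3 higher, and from E9.5 to E12.5 22 did, with 7 lower and 4 higher. Over all genes the lower shares were 34.3 and 28.4% and the higher 19.1 and 18.8%, so that the list was near the background between the embryonic time points. Hells was at 50.9 CPM at E12.5, against 0 at P1. Mbd1, a further methyl-CpG-binding protein, went from 71.7 CPM at E12.5 to 2.87 at P1 (log2 ratios of -6.36 to -1.80 over naming sets), and Mbd2 from 14.0 to 35.1, where 1 cell gave 41.7% of the P1 counts and the share of cells was 41.4% at E12.5 and 34.1% at P1. Of 12 NuRD subunits other than Mbd3, 7 were lower at P1 than at E9.5 and 0 higher, with a median log2 ratio of -1.09, beside 42.4% lower, 18.8% higher and a median of -0.64 over all genes. From E12.5 to P1, 11 of them reached 10 CPM, with 4 lower and 2 higher, beside 34.3 and 19.1% over all genes. Between E9.5 and P1, the deacetylase gene Hdac1 went from 67.6 to 16.2 CPM and Gatad2a from 171 to 32.8, whereas the histone chaperone gene Rbbp7 was at 563 and 478 CPM.

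Uhrf1 and Dnmt1 were then set beside proliferation genes. Mki67 was found at E9.5 in 28 of 42 cells, 12 of 29 at E12.5 and 3 of 41 at P1, with means of 317, 126 and 1.67 CPM. A list of 20 replication genes (such as Pcna and the Mcm genes) and one of 16 mitosis genes were lower at P1 than at E9.5 for 20 of 20 and 16 of 16 genes, with median log2 ratios of -4.71 and -6.95, where 42.4% of all genes were lower. Dnmt1, at -4.25, lay near the replication median. Lig1, the ligase of lagging-strand synthesis, was at 192 CPM at E9.5 and, like Uhrf1, at 0 at P1. Sums of the replication genes had medians of 1935 CPM per cell in E9.5 hearts, 1403 CPM in E12.5 hearts and 38.2 CPM in P1 hearts.

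Over embryonic cells, the link of either gene to Mki67 was weak. Uhrf1 was found in 32 of 40 embryonic cells with Mki67 (80.0%, 64.4 to 90.9%) and in 18 of 31 without (58.1%, 39.1 to 75.5%). Dnmt1 was found in 33 of 40 with Mki67 (82.5%, 67.2 to 92.7%) and in 16 of 31 without (51.6%, 33.1 to 69.8%). At equal depth these shares were 60.6 and 47.4% for Uhrf1 and 66.7 and 42.1% for Dnmt1. Over these pooled cells both genes were found more often with Mki67, with intervals that overlapped, and both were found in many cells without it. For Dnmt1 this order was mainly that of E9.5, where 26 of 28 cells with Mki67 and 7 of 14 without had it. At E12.5 it was found in 7 of 12 and 9 of 17, and within set C of E12.5 in 3 of 7 and 6 of 13. For Uhrf1 the share with Mki67 was higher in 3 of the 4 naming sets, and all 8 cells of set N523 had it. Dnmt3a showed no such order, with 32 of 40 and 28 of 31 cells.

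Spearman's rho between CPM values, taken within naming sets and averaged by their cells, was 0.24 for Uhrf1 and 0.23 for Dnmt1 with Mki67, over 70 cells. Cells of a set share the time point and the title prefix, and differ in depth. For Uhrf1 the 4 sets gave 0.48 (E9.5, C), 0.15 (E9.5, N530), 0.31 (E12.5, C) and -0.02 (E12.5, N523). For Dnmt1 they gave 0.36, 0.30, 0.04 and 0.24 in the same order. Uhrf1 ran closer to the sum of the replication genes (0.35) than to that of the mitosis genes (0.18). Over sets these values ran from 0.10 to 0.71 and from -0.50 to 0.50, and in set C of E9.5 they were close (0.37 and 0.36). Dnmt1 gave 0.25 with the replication genes and 0.06 with the mitosis genes. Uhrf1 and Dnmt1 themselves correlated at 0.12. These values describe the cells and carry no test, and in counts as sparse as these such weak values are no finding.

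The same holds for Tet2 and Dnmt3a. Tet2 gave a rho of -0.38 with the replication genes (-0.66 to -0.17 over the 4 sets). Dnmt3a gave -0.24 (-0.60 to -0.02). With Mki67 they gave 0.13 and 0.02.

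**Figure D5:**
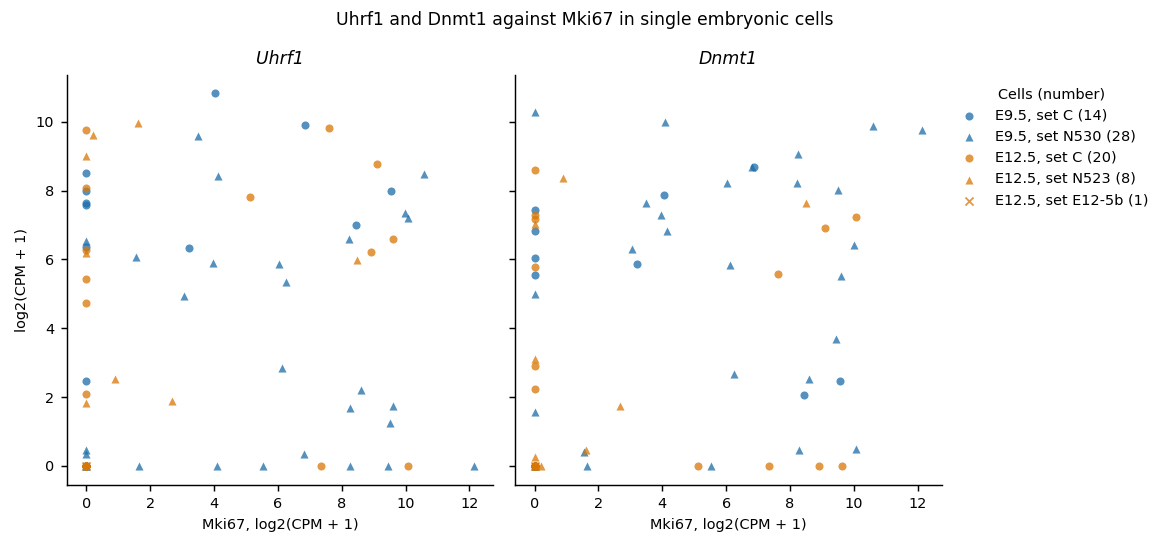
Uhrf1 (left) and Dnmt1 (right) against Mki67 in the 71 embryonic cells, as log2(CPM + 1), with color for the time point and shape for the naming set. Cells at 0 on 1 axis and above 0 on the other are common, as 18 of 31 cells without Mki67 have Uhrf1.

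Of 6593 genes found in at least 25% of embryonic cells, those most like Uhrf1 by the same measure were Rpl7a (0.54), Tubb5 (0.54), Golga5 (0.51), Dut (0.51) and Nasp (0.49), and Mki67 ranked 609. Dut clears dUTP during DNA synthesis and Nasp is a histone chaperone. Those most like Dnmt1 were Prpf19 (0.51), Mbnl3, Chek1, Mrpl48 and Patl1 (0.45), and Mki67 ranked 429. Chek1 encodes a checkpoint kinase of the S and G2 phases. No member of the 8 was among the 5 most like either gene. The genes named are the highest of 6593 values over 70 cells, with no test behind them. No shared function is read from the few whose role is given here.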

How the data were processed

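RNA of single αMHC-GFP+ cells was amplified with SMART-Seq V4 chemistry and read on a NextSeq. The authors used OLego for mapping and featureCounts for counts of reads per gene symbol (the labels name GRCm38 and mm10; the strand setting is not given in the sources used here), and deposited raw read counts and TPM computed from them. The deposited TPM columns each sum to 1000000 and are 0 where the counts are 0.

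The 8 genes, the gene lists and the settings were chosen with earlier results of these data known. Cells with 2000 or more genes were kept. The study's methods state this minimum and more cells left by it than the 112 found here, and why the numbers differ is not known. CPM were computed per cell and averaged over cells, and a gene was called at 2-fold and 10 CPM. A value of 0 was set to 3 counts over the group. Shares carry exact (Clopper-Pearson) 95% intervals and summed counts exact Poisson intervals (scipy 1.17.1), for counting error only. With 1 sample per time point, no test was run. Ratios were repeated over pairs of naming sets of 6 or more cells. Thinning drew 100000 counts per cell without replacement (seed 1). Genes named beyond the 8 are Mki67, the 3 largest ratios in each direction of each list for both comparisons with P1 (not all are given), Uhrf2, Hells, Mbd2 and Tdg, and the 5 most like Uhrf1 and Dnmt1. A further gene under this rule is not reported here. Promoters are RefSeq windows (GRCm38.p6) and gene positions GENCODE (GRCm38). TMM factors came from edgeR 4.0.16 on summed counts. The scripts were tested on simulated data. Alternatives were other minimum gene numbers, detection limits, thinning depths and seeds, summed CPM, TPM, TMM factors, single naming sets, and cells left out by title ending, markers or highest value. Removal of the 5 cells under 5000 CPM of cardiomyocyte markers and of set E12-5b were added after seeing the data.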

Additional observations from a re-analysis of the deposited data

How the results depend on the processing

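The calls of Uhrf1 and Dnmt1 at P1, lower than at both embryonic time points, held under every alternative run, but the sizes varied. Uhrf1 ran from -9.30 to -4.32 on the log2 scale against E9.5 and from -9.61 to -4.59 against E12.5, with the smallest sizes at 1000 or more genes per cell, where 1 cell of 4903 counts enters. Dnmt1 ran from -5.10 to -3.03 and from -3.38 to -2.41. The counts of genes past 2-fold depended more on the processing. From E9.5 to E12.5 the count of 2 became 5 in summed CPM, 1 with TMM factors and 0 among cells with 3000 or more genes, and from E9.5 to P1 the count of 3 became 5 in deposited TPM. TMM factors moved all log2 ratios by 0.43 (E12.5 to E9.5), 0.17 (P1 to E9.5) and -0.26 (P1 to E12.5). In 34 of 38 recomputed counts the value stayed within 1.5 times, but the genes could change: in set C the 2 genes from E9.5 to E12.5 were Uhrf1 and Mbd3, in place of Dnmt1 and Tet1. Of 261 recomputed log2 ratios, 52 moved by more than the spread over naming sets, and of 288 shares, 29 left their exact interval. The rho of Dnmt1 was 0.059 with mitosis genes in place of Mki67, and the other 19 of 20 recomputed links stayed within their spread over naming sets. Without thinning, Uhrf1 was found in 73.8% and Dnmt1 in 78.6% of E9.5 cells. After thinning, Uhrf1 was found in 71.4% of the E9.5 cells of set C. At 10 counts or more after thinning, Uhrf1 was found in 31.0% of E12.5 and Dnmt1 in 38.1% of E9.5 cells. The causes were not tested, except that fewer counts or a higher limit lower a share by construction. Depth was lowest at P1, at 69522 to 327360 counts per cell. No paired analysis was possible because the labels give no animal and the replicate numbers are names in accession order.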

Other observations

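The P1 cell with the lowest sum of cardiomyocyte markers (297 CPM) had an endothelial marker sum of 7804 CPM. It had Dnmt3a at 146 CPM and Tet2 at 68.1 CPM and no count of Uhrf1 or Dnmt1. Without it, Dnmt1 was at 9.97 CPM and Dnmt3a at 130 CPM over the other 40 P1 cells.

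The 11 P1 cells with fewer than 2000 genes held 714929 counts in all. Among them, Dnmt3a was found in 3 cells (92 counts), Tet2 in 3 (25 counts), Tet3 in 2 (7 counts), Mbd3 in 1 (25 counts), Tet1 in 1 (4 counts), Uhrf1 in 1 (2 counts) and Dnmt1 in 1 (1 count), with no count of Dnmt3b or Mki67.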
